A study of Mus musculus with 6 samples.

Results

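A set of 38 genes of synaptic transmission was followed across the 6 libraries of the series. The genes were chosen by symbol, as components of synaptic vesicle release, of the photoreceptor ribbon synapse and of the contact between pre- and postsynaptic membranes, and all 38 were found among the 24421 gene rows. Libraries came from retinas of C57BL/6 pups at postnatal day 7, from RNA of cells labelled as retinal endothelial cells. The 3 control libraries carried the genotype Anxa3 fl/fl, with both alleles of the annexin A3 gene floxed, and the 3 mutant libraries carried Anxa3 fl/fl;Tie2-Cre. Both groups therefore share the floxed alleles, and Cre is present in the mutants alone, so Cre and the loss of Anxa3 cannot be told apart. The Tie2 promoter drives the recombinase in endothelial cells and in cells of the blood lineage, not in neurons. Whether a library holds 1 pup or a pool is not given, so the spread between libraries may be partly technical. Values are FPKM, fragments per kilobase of gene, scaled to the depth of the library, and are comparable between genes because they are scaled by length. Values listed for a genotype stand in replicate order, 1 to 3.

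At a chemical synapse, vesicles filled with transmitter dock at the active zone and fuse when calcium enters. Fusion is carried out by the SNARE proteins, syntaxin and SNAP25 on the plasma membrane and synaptobrevin on the vesicle, which zip together, while synaptotagmin senses calcium and complexin holds and primes the assembled complex. Photoreceptors and bipolar cells of the retina release transmitter continuously, at a plate of vesicles called the synaptic ribbon, and use their own variants of several parts: syntaxin 3 in place of syntaxin 1, complexins 3 and 4 in place of 1 and 2, and the L-type calcium channel Cav1.4 with its regulator CaBP4. Amacrine and ganglion cells make conventional synapses with the common forms.

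The preparations held endothelial and neural RNA side by side. All 15 endothelial markers reached 1 FPKM in all libraries, with a mean level of 5.14 to 6.29 on the log2(FPKM + 1) scale, and control replicate 3 was the highest. All 13 rod markers did too, at 7.83 to 8.51, and so did the 11 bipolar and 9 cone markers, at 4.42 to 4.91 and 3.44 to 4.11. Markers of amacrine and horizontal cells stood at 2.47 to 2.75, of ganglion cells at 2.13 to 2.62, and of microglia at 1.91 to 2.86, and of all markers listed only Cnn1, a smooth muscle gene, was at 0 in any library. In bulk RNA of this kind, fewer cells of a type and less RNA per cell cannot be told apart. The targeted gene Anxa3 measured 18.7, 17.7 and 43.4 FPKM in the controls and 9.78, 12.5 and 15.1 FPKM in the mutants. Every mutant library lay below every control library (log2 difference -0.93, two-sided exact permutation p = 0.1, the smallest that 20 arrangements allow; limma adjusted p = 0.9998). The difference was -0.53 without control replicate 3 and -0.55 with weights estimated per library. The reads recovered from the FPKM came to 21373001 to 30889993 per library, and a member rested on 43 to 32217 reads in a library.

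The sequences just upstream of the start sites of 1 ribbon and 1 conventional syntaxin, and of a ribbon complexin, are shown because these genes carry the contrast of levels. Each is the 250 bases before the RefSeq start site on GRCm38.p6, written 5′ to 3′ on the gene's strand. Stx3 is read from chr19:11819404-11819653 on the minus strand, Stx1a from chr5:135023232-135023481 on the plus strand and Cplx3 from chr9:57606282-57606531 on the minus strand. Capitals mark matches, on either strand, to 5 motifs, none of which overlap each other here. One is the GC box, GGGCGG. E-boxes were searched in the form CACGTG, and in the form CAGCTG as well. The TATA element was searched as TATAAA. The core of OTX and CRX homeodomain sites was searched as TAATCC.
Stx3: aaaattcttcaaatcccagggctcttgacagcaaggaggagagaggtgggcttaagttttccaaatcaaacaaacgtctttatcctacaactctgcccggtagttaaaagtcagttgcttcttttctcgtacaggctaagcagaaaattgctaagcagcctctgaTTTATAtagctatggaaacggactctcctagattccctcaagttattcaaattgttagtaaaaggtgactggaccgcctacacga
Stx1a: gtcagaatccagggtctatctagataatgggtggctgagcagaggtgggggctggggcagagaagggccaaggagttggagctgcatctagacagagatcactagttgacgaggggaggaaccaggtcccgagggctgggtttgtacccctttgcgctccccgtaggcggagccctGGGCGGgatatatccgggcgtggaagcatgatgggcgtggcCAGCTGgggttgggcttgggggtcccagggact
Cplx3: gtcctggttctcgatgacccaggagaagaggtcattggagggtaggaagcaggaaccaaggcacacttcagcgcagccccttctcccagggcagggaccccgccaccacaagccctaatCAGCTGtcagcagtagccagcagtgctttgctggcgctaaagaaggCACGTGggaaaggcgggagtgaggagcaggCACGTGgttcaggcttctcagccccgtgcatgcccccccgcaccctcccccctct
The Stx3 window is the poorer in G and C, 42% against 62% for Stx1a and 62.8% for Cplx3, where the median of all 32851 windows of this length was 52.4%. Stx3 holds 1 TATAAA match, Stx1a 1 GC box and 1 CAGCTG, and Cplx3 1 CAGCTG and 2 CACGTG, and none of the 3 holds TAATCC. Of 29 members with a window in RefSeq, a GC box occurred in 16, CAGCTG in 8, CACGTG in 4, TAATCC in 4 (Ctbp2, Dlg4, Sv2b and Syp) and TATAAA in 3, counting a gene once over its windows. Counted by window, they occurred in 17, 8, 4, 5 and 4 of the members' 41 windows, and in 32.7%, 13.0%, 6.02%, 6.25% and 12.4% of all windows, in the same order. The motifs were chosen after the sequences were seen, and a match is a description of the letters only.

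Most of the chosen members were abundant, and this does not extend to synaptic genes outside the set. Of the 38 members, 7 averaged 100 FPKM or more over the 6 libraries, 25 lay between 10 and 100 FPKM and 6 lay under 10 FPKM. Among the 37 that passed the filter of 1 FPKM in at least 3 libraries, 30 lay above the median of all 13619 tested genes (11.8 FPKM), and the median member stood at 40.0 FPKM. The exception was Syt2, which fell under the filter and is given without a test. Within a gene, the highest library was less than 1.5 times the lowest for 24 of the 38. For Stx1a and Syt2 the spread was 2-fold or more. The shares over all tested genes were not computed.

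**Figure D1:**
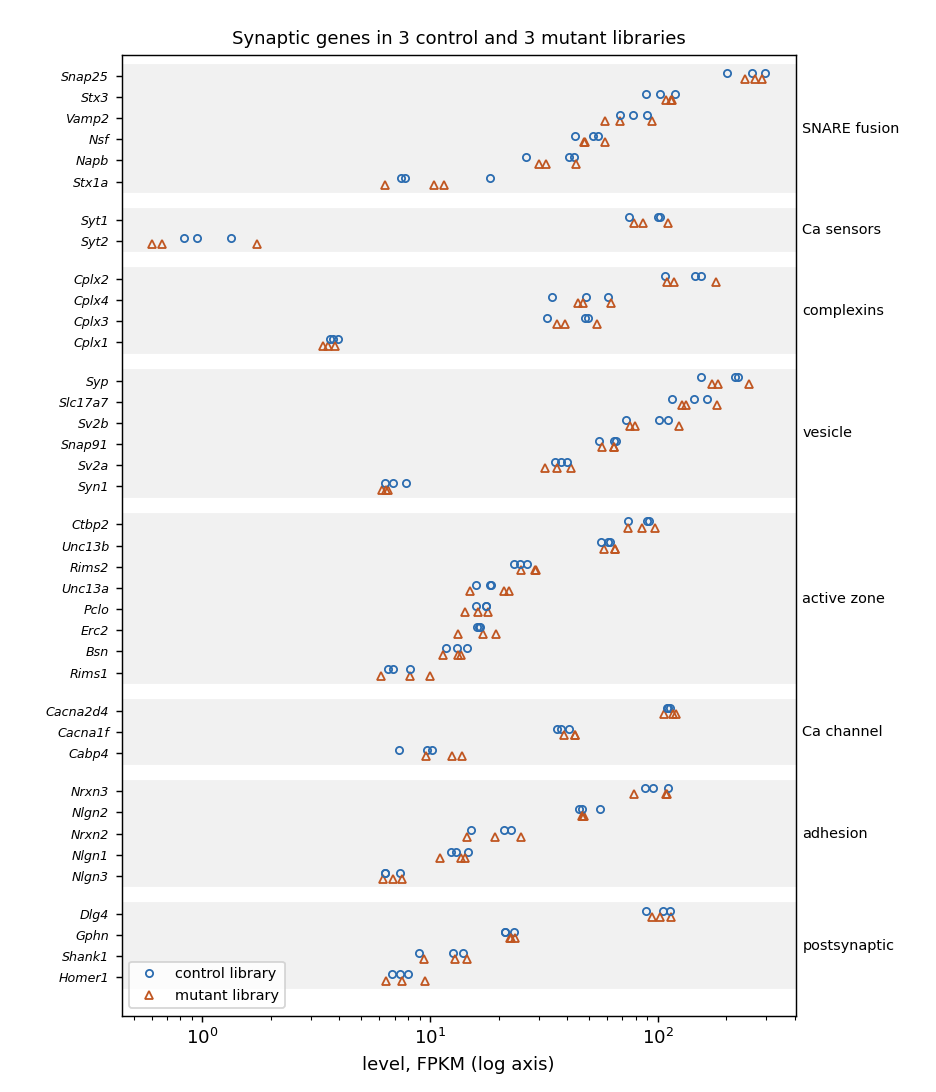
Level of each of the 38 synaptic genes in FPKM (log axis), grouped by role and ordered by mean level, with 1 open circle per control library and 1 open triangle per mutant library. Levels run from Syt2 near 1 FPKM to Snap25 above 200 FPKM, and circles and triangles overlap for every gene.

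The fusion machinery was led by Snap25, the plasma-membrane SNARE that contributes a pair of helices to the complex. Snap25 measured 296, 260.3 and 201 FPKM in the controls and 287, 266 and 241 FPKM in the mutants. Control replicate 3 was the lowest and control replicate 1 the highest, so the groups overlapped. Vamp2, the vesicle SNARE synaptobrevin 2, ranged over 58.8 to 94.0 FPKM. The disassembly enzyme Nsf ranged over 43.4 to 58.4 FPKM, and its adaptor Napb, the brain form of SNAP, over 26.5 to 43.9 FPKM. For the last 3 genes mutant replicate 1 was the highest library.

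Of the calcium sensors, Syt1 is the classical trigger of fast release. Syt1 measured 103, 100.4 and 75.0 FPKM in the controls and 111, 79.0 and 86.1 FPKM in the mutants. Doc2b, a related sensor outside the members, ranged over 59.8 to 81.9 FPKM. Its relative Syt2, a fast sensor of other synapses, measured 0.832, 1.33 and 0.947 FPKM in the controls and 0.603, 0.664 and 1.73 FPKM in the mutants, from 43 to 163 reads. Syt1 overlapped between genotypes, with its extremes in control replicate 3 and mutant replicate 1, while for Syt2 both extremes were mutant libraries.

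Vesicle proteins were among the highest values of the set. Syp measured 226, 219 and 155 FPKM in the controls and 252, 174 and 185 FPKM in the mutants; it encodes synaptophysin, an integral vesicle protein. The vesicular glutamate transporter Slc17a7 (VGLUT1), which loads glutamate into vesicles of photoreceptors and bipolar cells, measured 145, 164 and 115 FPKM in the controls and 183, 128 and 134 FPKM in the mutants. For both genes control replicate 3 was the lowest library and mutant replicate 1 the highest. Sv2b measured 111, 102 and 72.6 FPKM in the controls and 125, 79.8 and 75.7 FPKM in the mutants, and the related vesicle glycoprotein Sv2a ranged over 32.0 to 41.8 FPKM. The clathrin adaptor Snap91 (AP180), which acts in vesicle retrieval, ranged over 55.2 to 65.9 FPKM. Syn1, synapsin 1, which tethers vesicles at conventional synapses and is absent from ribbon terminals, lay at 6.15 to 7.88 FPKM, the lowest of the vesicle genes. VGLUT2, encoded by Slc17a6, stood at 0.758 to 2.22 FPKM, so that Slc17a7 was 60.2 to 191 times as high.

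Active zone scaffolds divided by level. Ctbp2, whose gene encodes both the corepressor CtBP2 and, from another start, the ribbon protein RIBEYE, ranged over 74.2 to 97.8 FPKM, and the gene row does not separate these products. Unc13b measured 60.7, 61.8 and 56.2 FPKM in the controls and 57.9, 65.3 and 65.2 FPKM in the mutants, against 15.0 to 22.3 FPKM for Unc13a, both of them priming factors of vesicle fusion. Unc13b was 2.93 to 3.87 times as high as Unc13a in each library. Rims2, which links vesicles to calcium channels, ranged over 23.5 to 29.3 FPKM and Rims1 over 6.12 to 10.01 FPKM. The very large scaffolds Bsn and Pclo ranged over 11.4 to 14.5 FPKM and 14.3 to 18.1 FPKM, and Erc2 over 13.3 to 19.5 FPKM. Control values of Erc2 were close together at 16.1, 16.4 and 16.5 FPKM, and the mutant values of 13.3, 17.2 and 19.5 FPKM lay on both sides of them.

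The calcium channel of photoreceptor terminals had subunits that varied little, 1.13-fold and 1.20-fold between the highest and lowest library, while its regulator varied 1.89-fold. Cacna2d4, its auxiliary subunit, measured 111, 114 and 110.2 FPKM in the controls and 106, 119.8 and 117 FPKM in the mutants. Cacna1f measured 37.7, 40.95 and 36.1 FPKM in the controls and 38.8, 43.2 and 43.2 FPKM in the mutants; it encodes the pore of Cav1.4. Mutant replicates 2 and 3 were the highest libraries for both genes, and mutant replicate 1 was among the controls or below them. Cabp4 measured 10.2, 9.72 and 7.33 FPKM in the controls and 12.5, 9.61 and 13.8 FPKM in the mutants. Cabp4 was lowest in control replicate 3, and only mutant replicate 2 lay within the control range.

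Adhesion and postsynaptic genes spanned the same range. Nrxn3 measured 87.8, 95.3 and 111 FPKM in the controls and 79.1, 109.6 and 109 FPKM in the mutants, and Nrxn2 ranged over 14.5 to 25.1 FPKM; neurexins are presynaptic receptors. Their partners, the neuroligins, ranged over 11.0 to 14.6 FPKM for Nlgn1, 45.0 to 55.7 FPKM for Nlgn2, which is found at inhibitory synapses, and 6.20 to 7.50 FPKM for Nlgn3. Mutant replicate 1 was the lowest library for Nrxn2, Nrxn3, Nlgn1 and Nlgn3. Dlg4 (PSD-95), a scaffold of excitatory synapses that in the outer retina sits in photoreceptor terminals, measured 105, 113 and 88.8 FPKM in the controls and 114, 102 and 94.9 FPKM in the mutants. Gphn, the gephyrin scaffold of inhibitory synapses, ranged over 21.4 to 23.5 FPKM, the smallest relative spread of all members, 1.10-fold. Shank1 ranged over 8.96 to 14.6 FPKM and Homer1 over 6.42 to 9.51 FPKM.

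Ribbon forms outweighed conventional ones for syntaxin, whereas complexins were mixed. Stx3 measured 119, 102 and 88.8 FPKM in the controls and 109, 115 and 115 FPKM in the mutants. Stx1a measured 7.48, 7.78 and 18.4 FPKM in the controls and 6.33, 10.45 and 11.5 FPKM in the mutants. Stx3 was 15.9, 13.2 and 4.82 times as high as Stx1a in the controls and 17.2, 11.0 and 10.03 times in the mutants. The low ratio of control replicate 3 came with the highest Stx1a of any library, 18.4 FPKM, and with the highest endothelial marker level, 6.29. Across libraries Stx1a ran in the order control replicate 3, mutant replicates 3 and 2, control replicates 2 and 1, mutant replicate 1, and the first 3 of these were also the first 3 by endothelial level. The first 3 are the libraries lettered D to F, which all lay above those lettered A to C for 15.1% of all tested genes. Below the first 3 the orders differed. The part of other cell types in the Stx1a value was not tested.

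Of the complexins, Cplx2 was the most abundant. Cplx2 measured 145, 155 and 108 FPKM in the controls and 181, 118 and 110.3 FPKM in the mutants. Cplx3 measured 47.9, 49.4 and 32.6 FPKM in the controls and 54.2, 39.3 and 36.0 FPKM in the mutants. Cplx4 measured 60.8, 48.5 and 34.5 FPKM in the controls and 62.4, 44.8 and 47.0 FPKM in the mutants. The 3 genes were lowest in control replicate 3 and highest in mutant replicate 1. Cplx1 measured 3.75, 3.94 and 3.65 FPKM in the controls and 3.57, 3.81 and 3.39 FPKM in the mutants. Cplx1 was nearly flat, with a highest library 1.16 times the lowest. As a share of summed complexin FPKM, Cplx3 and Cplx4 together made 42.2%, 38.1% and 37.6% in the controls and 38.7%, 40.8% and 42.2% in the mutants. Cplx2 made 56.1% to 60.3% and Cplx1 1.19% to 2.05%. So the ribbon complexins were 8.95 to 15.2 times (Cplx3) and 9.46 to 17.5 times (Cplx4) as high as Cplx1, but 0.299 to 0.332 times and 0.313 to 0.426 times as high as Cplx2.

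Set side by side, the 5 ribbon forms (Stx3, Cplx3, Cplx4, Cacna1f and Cabp4) had mean log2(FPKM + 1) levels of 5.27 ± 0.238 (control) and 5.41 ± 0.105 (mutant; SD over 3 libraries). The 3 conventional forms (Stx1a, Cplx1 and Cplx2) averaged 4.28 ± 0.126 and 4.20 ± 0.0204. The ribbon mean less the conventional mean was 1.27, 1.12 and 0.58 in the controls and 1.33, 1.09 and 1.21 in the mutants. Control replicate 3 stood apart from the other 5 libraries, which lay between 1.09 and 1.33, and the groups overlapped. The group means were 0.99 and 1.21, a difference of 0.22, against an SD within groups of 0.27. Without control replicate 3 the difference was 0.02, and without control replicate 1 it was 0.36. Leaving Stx1a out of the conventional forms gave 0.18, with SDs of 0.11 (control) and 0.14 (mutant). Control replicate 3 then stood at 0.51, near control replicate 2 at 0.56, and the groups still overlapped. Rod markers were also lowest and endothelial markers highest in control replicate 3, and their part in the difference was not tested.

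**Figure D2:**
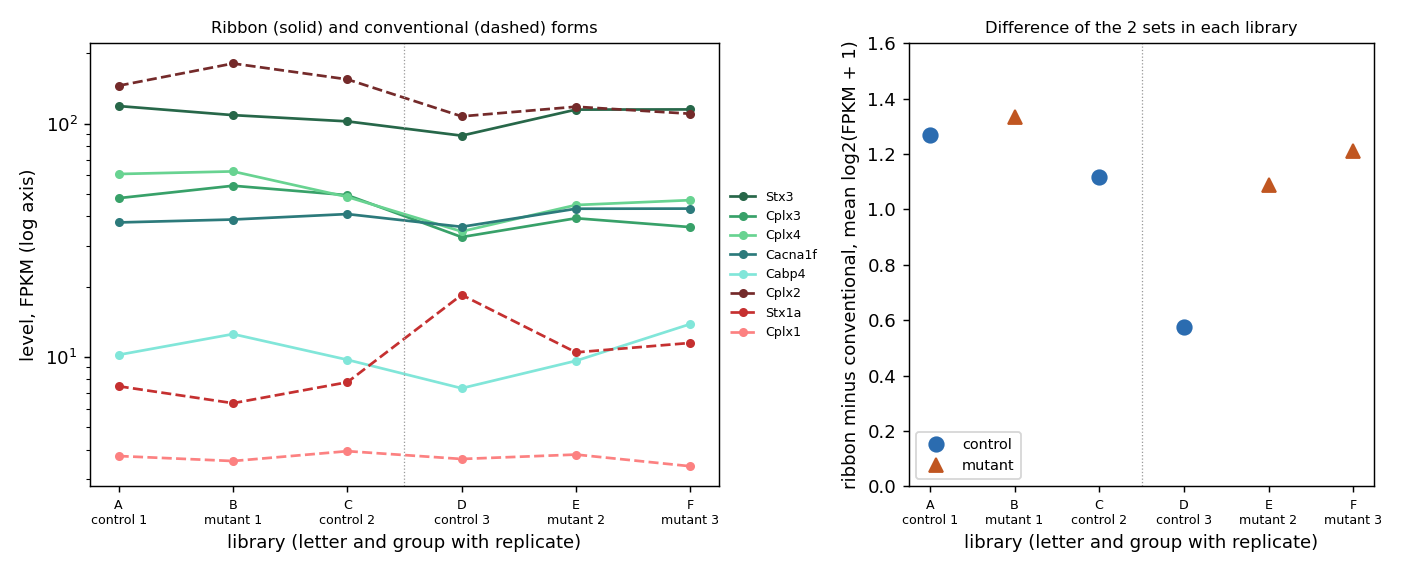
Left, level in FPKM (log axis) of the 5 ribbon forms (solid lines) and 3 conventional forms (dashed lines) in each library, ordered by the letter in its label, with a dotted line between C and D. Right, ribbon mean less conventional mean on the log2(FPKM + 1) scale, circles for controls and triangles for mutants; library D, control replicate 3, lies at 0.58 and the other 5 between 1.09 and 1.33.

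No member passed the test between genotypes. By limma, 0 of the 37 tested members passed at an adjusted p under 0.05, as did 0 of all 13619 tested genes, a background of 0%. At an unadjusted p under 0.05 there were 0 members, against 1.21% of all genes, and limma voom on the recovered reads also called 0. Mutant means were higher for 22 members and lower for 15, that is 59.5% higher, where 47.5% of all tested genes were. Without control replicate 3, 15 were higher and 22 lower. The median member difference was 0.01 (-0.05 without control replicate 3) and that of all genes -0.01 on the log2(FPKM + 1) scale. Every mutant library lay above every control library for 0 members (2.79% of all genes) and below for 0 (1.56%). All 37 limma 95% confidence intervals lay between -1 and 1, as did those of 13154 of all 13619 tested genes. The median half-width was 0.31, as for all tested genes (0.31). The scale understates changes of low genes. For Stx1a, whose interval reached from -0.94 to 0.63, a 2-fold change in FPKM is therefore not excluded.

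Cabp4 had the largest difference of the set in this fit. It had a control mean of 9.08 ± 1.53 and a mutant mean of 11.99 ± 2.15 FPKM (SD, 3 libraries per genotype). On the log2(FPKM + 1) scale the difference was 0.36, with a 95% interval of -0.02 to 0.75 and a limma adjusted p = 0.9998. It was 0.23 without control replicate 3 and 0.05 with weights estimated per library, where Cplx2 (-0.33), Vamp2 (-0.33) and Stx1a (0.31) differed more. Other members of the channel were closer to 0. Cacna1f had a control mean of 38.2 ± 2.47 and a mutant mean of 41.7 ± 2.53 FPKM (SD, 3 libraries per genotype), and differed by 0.12 (-0.09 to 0.34), and Cacna2d4 differed by 0.03 (-0.20 to 0.26). Among SNARE genes, Stx3 differed by 0.14 (-0.16 to 0.43), and by 0.03 without control replicate 3 and 0.24 without control replicate 1. Stx1a differed by -0.16 with the widest interval of the set, -0.94 to 0.63, and became 0.23 without control replicate 3. Snap25 differed by 0.08 and Vamp2 by -0.11. Of the complexins, Cplx4 differed by 0.12 (-0.37 to 0.61) and the differences of the other 3 were -0.06 for Cplx1, -0.01 for Cplx2 and -0.003 for Cplx3. In the active zone, Rims2 differed by 0.14 (-0.09 to 0.37), Rims1 by 0.13 and Unc13a by 0.12. Unc13a differed by 0.29 without mutant replicate 1 and by 0.02 without mutant replicate 3. Vesicle genes ranged from -0.12 for Syn1 to 0.06 for Slc17a7, adhesion genes from -0.06 for Nlgn2 to 0.03 for Nlgn3, and postsynaptic genes from 0.02 for Dlg4 to 0.06 for Homer1.

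**Figure D3:**
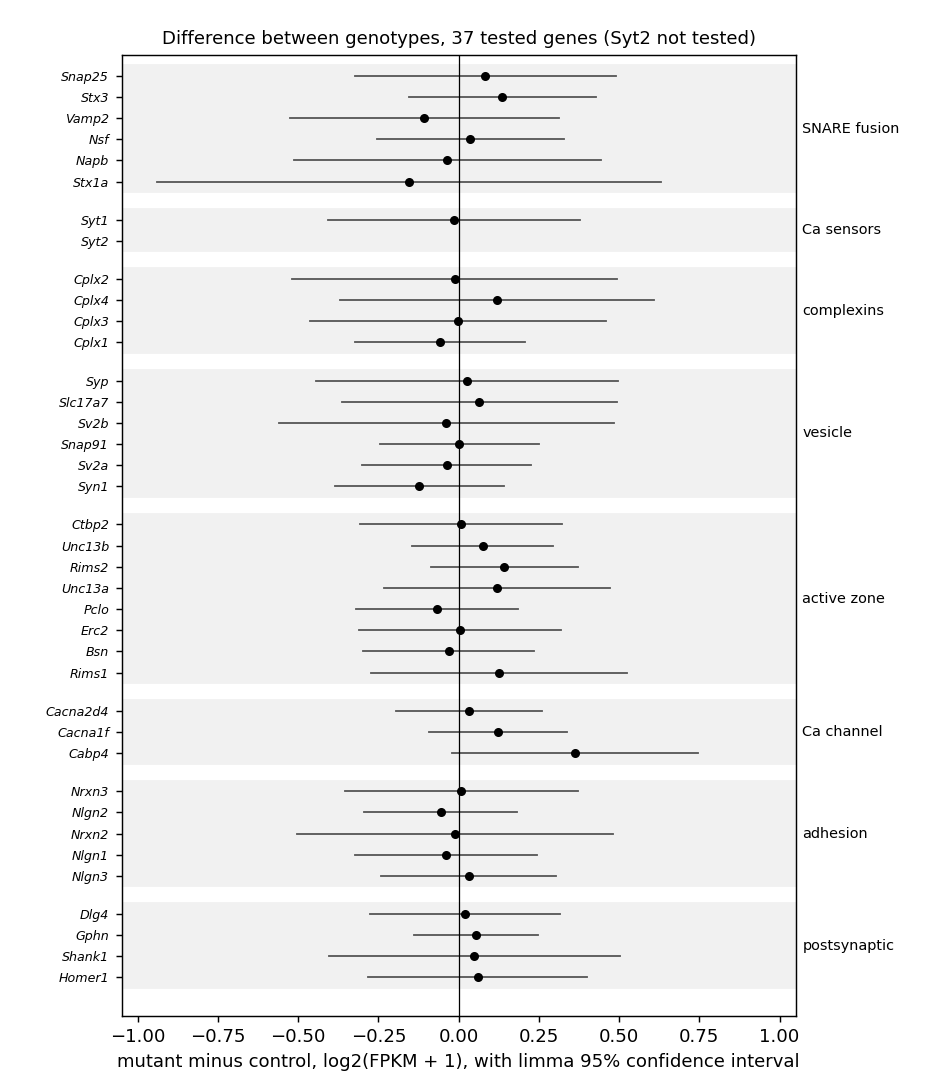
Mutant minus control difference of each tested member on the log2(FPKM + 1) scale (points) with the limma 95% confidence interval (lines), grouped by role. Each interval crosses 0; Cabp4 lies farthest to the right at 0.36 and Stx1a farthest to the left at -0.16.

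A division by library letter ran across the genotypes. The labels letter the libraries, and members differed between those lettered A to C (control replicates 1 and 2 and mutant replicate 1) and those lettered D to F (control replicate 3 and mutant replicates 2 and 3). The sources used here do not say what a letter marks. All libraries A to C lay above all of D to F for 13 of 37 members, 35.1% against 20.0% of all tested genes, and D to F lay above A to C for 6, 16.2% against 15.1%. The 13 were Vamp2, Nsf, Napb, Syt1, Cplx2, Cplx3, Cplx4, Syp, Sv2a, Sv2b, Slc17a7, Ctbp2 and Dlg4. The 6 were Stx1a, Rims1, Unc13a, Erc2, Nrxn3 and Shank1. On the log2(FPKM + 1) scale, D to F less A to C was -0.55 for Sv2b, -0.51 for Cplx2, -0.51 for Napb and -0.48 for Cplx3 at one end, and 0.78 for Stx1a, 0.40 for Shank1, 0.39 for Nrxn2, whose sets of libraries overlap, and 0.37 for Rims1 at the other. By role, 4 of 6 vesicle genes and 3 of 4 complexins were among the 13, and 3 of 8 active zone genes were among the 6. In the first set of libraries the rod marker level was 8.28 to 8.51, against 7.83 to 8.16 in the second. The endothelial level was 5.14 to 5.27 against 5.37 to 6.29, and that of Muller glia and astrocytes 3.747 to 3.81 against 3.593 to 3.744. The ranges of amacrine and horizontal cells, 2.47 to 2.69 against 2.68 to 2.75, overlapped. So did those of the bipolar, cone, ganglion cell, microglia, and pericyte and smooth muscle markers. The part of these cell types was not tested.

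Longer members were more often higher in D to F. Length here is the one that scales the FPKM, recovered from it, and not the span of the gene in the genome. It ran from 1433 bases for Cabp4 to 22100 for Pclo. Of 7 members under 2500 bases 1 was higher in D to F, and of 15 between 2500 and 5000 bases 2 were. Of 9 between 5000 and 7500 bases 6 were, and all 6 of 7500 bases or more were. In the same order of length, 50.24%, 47.38%, 51.25% and 54.04% of all tested genes were higher in D to F. The shares of the other synaptic genes were 63.16%, 55.26%, 82.35% and 80.0%. Over the 37 members, Spearman's rho between length and the D to F less A to C difference was 0.52. The same libraries gave 0.22 over 89 other synaptic genes and -0.03 over 13491 tested genes. These are descriptions over genes measured in the same libraries, which are not independent of each other. Stx1a, 2071 bases long, and Sv2b, 5705 bases long, lay far from this order.

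**Figure D4:**
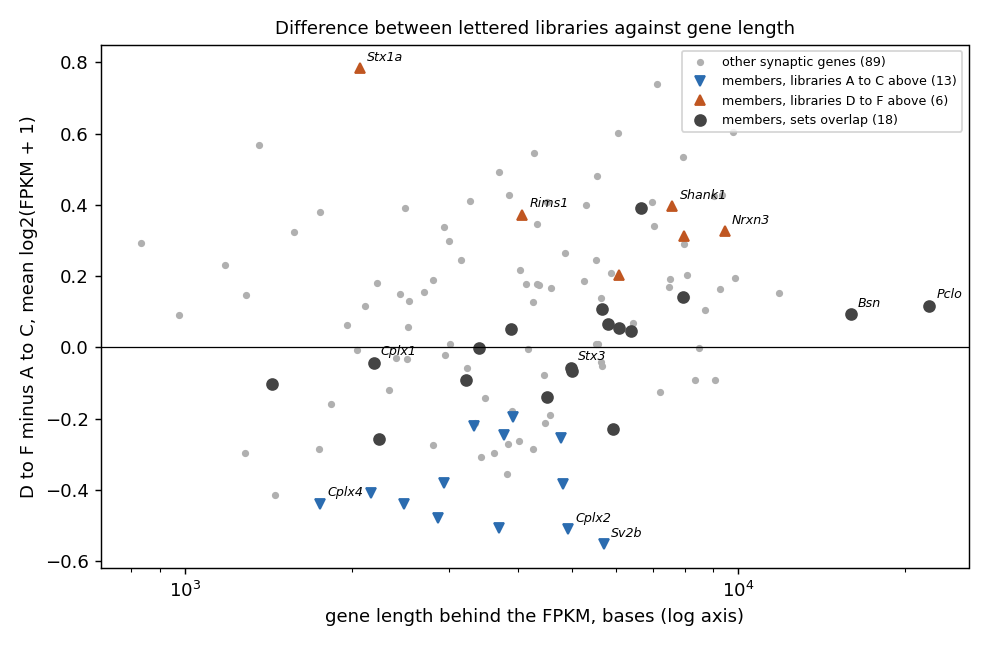
Mean log2(FPKM + 1) of libraries D to F less that of A to C against the length behind the FPKM, in bases (log axis). Shown are 37 members (large symbols, by whether the sets of libraries overlap) and 89 other synaptic genes (grey dots). All 6 members of 7500 bases or more lie above 0, and the 13 members with A to C above lie between -0.19 and -0.55.

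Within each lettered set, mutants and controls could be set side by side, although a set has a single library of 1 of the genotypes. Every mutant lay above every control of its own set, in both sets, for 12 of 37 members, 32.4% against 13.5% of all tested genes. These were Nsf, Napb, Syt1, Cplx2, Cplx3, Cplx4, Syp, Sv2b, Slc17a7, Ctbp2, Cabp4 and Dlg4. Syp, for instance, measured 226 and 219 FPKM in the controls and 252 FPKM in the mutant of A to C, and 155 FPKM in the control and 174 and 185 FPKM in the mutants of D to F. Mutants lay below controls in both sets for Stx1a and Nrxn3, 5.41% against 9.71%. Rod markers stood in the same order as the 12: 10 of the 13 were higher in mutants within both sets, as were 6 of 9 cone markers, 3 of 11 bipolar markers and 0 of 15 endothelial markers. Of the 15, 4 (Erg, Emcn, Flt1 and Egfl7) were lower in mutants within both sets, 26.7% against 9.71% of all genes. The rod level was 8.41 and 8.28 in the controls and 8.51 in the mutant of A to C, and 7.83 in the control and 8.13 and 8.16 in the mutants of D to F. With the letters as a block in limma, 0 members passed (smallest adjusted p = 0.718), and 6, Stx1a, Cplx3, Cplx4, Syp, Slc17a7 and Cabp4, had an unadjusted p under 0.05, against 6.81% of all genes. With weights estimated per library, 0 passed and 15 had an unadjusted p under 0.05, against 29.9% of all genes. The direction was then the opposite for members shared with the block: Cplx3, Syp and Slc17a7 differed by 0.18, 0.19 and 0.21 with the block and by -0.27, -0.28 and -0.27 with the weights. Weights were highest for mutant replicate 2, of D to F (7), and control replicate 2, of A to C (3.34). The weighted difference thus also crosses the lettered sets, and genotype and letter cannot be told apart in it. The part of rod content in these differences was not tested. In D to F the only control is the library with the most endothelial RNA.

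The rest of the release machinery gave no call either. Of 94 other synaptic genes, 89 were tested and 0 passed by limma, as did 0 of all tested genes. At an unadjusted limma p under 0.05 there were 0, against 1.21% of all genes. Mutant means were higher for 60 and lower for 29, that is 67.4% higher against 47.5% of all tested genes, with a median difference of 0.04. No library group stood clear of the other for any of the 89, where mutants lay above for 2.79% of all genes and below for 1.56%. The smallest unadjusted p on the higher side belonged to Lrit3, whose protein acts at the synapse of photoreceptors with bipolar cells, with a control mean of 11.2 ± 1.69 and a mutant mean of 13.2 ± 0.877 FPKM (SD, 3 libraries each) and a log2 difference of 0.23. In the same order of genotypes, then came the priming factor Unc13c at 9.97 ± 0.291 and 11.8 ± 2.10 FPKM, Slc17a6 at 1.06 ± 0.282 and 1.55 ± 0.584 FPKM, and Gpr179, a bipolar cell receptor, at 20.9 ± 1.75 and 23.8 ± 3.44 FPKM. On the lower side they were Vamp3, a widely expressed vesicle SNARE, at 29.6 ± 5.43 and 25.8 ± 0.429 FPKM, Snap29 at 7.41 ± 0.685 and 6.73 ± 1.34 FPKM, the clathrin adaptor Picalm at 67.5 ± 5.34 and 63.3 ± 4.35 FPKM, and Rims4 at 2.78 ± 0.650 and 2.39 ± 0.628 FPKM. By letter, D to F lay above A to C for 28 of the 89 (31.5% against 15.1%) and A to C above D to F for 12 (13.5% against 20.0%). Of the calcium channel genes outside the members, 7 of 13 had D to F above A to C and 0 the reverse.

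In the genome the members are scattered over many chromosomes. By GENCODE M21 on GRCm38, the syntaxins lie on chromosome 19 from 11775118 to 11819403 (Stx3, minus strand) and on chromosome 5 from 135023482 to 135051100 (Stx1a, plus strand). The complexins lie on chromosome 5 from 108518554 to 108550024 (Cplx1, minus strand), chromosome 13 from 54371349 to 54383917 (Cplx2, plus strand), chromosome 9 from 57599992 to 57606281 (Cplx3, minus strand) and chromosome 18 from 65955722 to 65970237 (Cplx4, minus strand). Cacna1f lies on chromosome X from 7607083 to 7635196 (plus strand) and Cabp4 on chromosome 19 from 4135423 to 4144033 (minus strand). Exons of these 8 genes are free of exons of other genes except in Cabp4, where 3.72% of exonic bases are shared with Gpr152 on the opposite strand. Strand use in counting is not given, so reads of such stretches cannot be assigned. The largest shared parts among members were 41.2% of exonic bases in Nlgn3, with the same-strand model Gm21986, and 16.8% in Syp, with Gm14703 on the opposite strand. These shares are over the GENCODE exons, 9271 bases for Nlgn3 and 5211 for Syp. The lengths recovered from the FPKM were 3883 and 2482 bases, so whether the shared bases were counted is not known.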

How the data were processed

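Total RNA of 6 libraries, 3 control and 3 mutant, was sequenced after a TruSeq RNA v2 preparation, as the extract protocol states. The deposited table holds FPKM computed by the authors, 1 column per library and 24421 rows, and columns were assigned by the letter in each sample's title. Per the submitters' processing notes the build was mm10 and the tools included DESeq2, Cufflinks 2.2.1, bedtools 2.17.0 and STAR 2.5.0b, with no roles given. Which annotation or filters applied, and whether strand was used, is not given in the sources used here.

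The 4 rows with a repeated symbol were left out. Whole reads and gene lengths were recovered from the FPKM, with depth factors from miRNA genes of known length, for each of the 16487 rows with no 0 (within 0.002 reads, or 2e-08 of a higher count). The factors equal median-of-ratios depths up to 1 constant (ratio 1.0 in each library). No libraries of a group agreed within sampling noise (chi-square per degree of freedom 16.6 to 84.8). Genotypes were compared by the moderated two-sided test of limma 3.58.1 (R 4.3.3) on log2(FPKM + 1), with the prior variance following the level. Genes entered if 3 or more libraries reached 1 FPKM, which left 13619. Benjamini-Hochberg adjustment ran over all of these, and 0.05 was the threshold. This scale understates changes of low genes. The fit was tested on simulated data. The simulation held no difference between libraries by letter or cell content, so it does not show how the fit behaves where these differ. Alternatives were a pseudocount of 0.1, 2 filters, a further scaling, a replicate block, a letter block, library weights, limma voom on recovered reads and the omission of each library.

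Members, lists and alternatives were chosen with earlier results of these data known. Named genes are the members, Anxa3 and, of the other synaptic genes, the 4 higher and 4 lower ones of smallest unadjusted p. Other names, including those given for their order by letter, were chosen after their values were seen. Positions are from GENCODE M21 and promoter windows from RefSeq on GRCm38.p6, the assembly also called mm10, where 29 of the 38 members had a window. Python 3.11.15, numpy 2.4.6, pandas 2.3.3, scipy 1.17.1 and matplotlib 3.10.9 were used.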

Additional observations from a re-analysis of the deposited data

How the results depend on the processing

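Under 14 alternatives to the designed fit, 0 members and 0 of the other synaptic genes passed the limma threshold. The count over all genes was 0 except with weights estimated per library, which called 145 (1.06%), none of them a member. In that fit the heaviest mutant library (replicate 2, D to F) and control library (replicate 2, A to C) lie in different lettered sets. The difference in Anxa3 was negative under each alternative, from -1.21 with the letter block to -0.53 without control replicate 3. Of 37 members, 28 turned sign under at least 1 alternative, 6 of them only when a library was left out, and 9 did not: Stx3, Cplx1, Syn1, Rims2, Unc13a, Unc13b, Cacna1f, Cabp4 and Gphn. Over single omitted libraries these 9 ran from 0.033 to 0.24 for Stx3, from -0.092 to -0.027 for Cplx1, from -0.18 to -0.049 for Syn1, from 0.098 to 0.21 for Rims2, from 0.016 to 0.29 for Unc13a, from 0.034 to 0.13 for Unc13b, from 0.083 to 0.17 for Cacna1f, from 0.23 to 0.50 for Cabp4 and from 0.034 to 0.094 for Gphn. With the letters as a block, turned differences were 0.033 for Vamp2, 0.15 for Napb, 0.13 for Syt1, 0.18 for Cplx2, 0.18 for Cplx3, 0.031 for Sv2a, 0.16 for Sv2b, -0.070 for Erc2, -0.11 for Nrxn3 and -0.093 for Shank1. With library weights, lowest at 0.26 (control replicate 3) and highest at 7 (mutant replicate 2), they were 0.31 for Stx1a, -0.10 for Nsf, -0.12 for Cplx4, -0.28 for Syp, -0.27 for Slc17a7, -0.026 for Snap91, -0.076 for Ctbp2, 0.12 for Pclo, 0.088 for Nlgn1, -0.037 for Nlgn3, -0.11 for Dlg4, 0.017 for Vamp3 and 0.0055 for Picalm, and with voom 0.011 for Syt1, 0.013 for Cplx2, 0.015 for Cplx3 and 0.0093 for Nrxn2. Over single omitted libraries, differences of members whose sign turned ran from -0.072 to 0.21 for Snap25, -0.36 to 0.23 for Stx1a, -0.29 to 0.041 for Vamp2, -0.061 to 0.10 for Nsf, -0.25 to 0.090 for Napb, -0.16 to 0.088 for Syt1 and -0.23 to 0.12 for Cplx2. Others ran from -0.19 to 0.11 for Cplx3, -0.094 to 0.31 for Cplx4, -0.15 to 0.13 for Syp, -0.13 to 0.054 for Sv2a, -0.26 to 0.093 for Sv2b, -0.096 to 0.18 for Slc17a7 and -0.077 to 0.060 for Snap91. The next ran from -0.091 to 0.10 for Ctbp2, -0.10 to 0.044 for Bsn, -0.14 to 0.015 for Pclo, -0.024 to 0.29 for Rims1, -0.11 to 0.15 for Erc2, -0.0022 to 0.082 for Cacna2d4 and -0.20 to 0.18 for Nrxn2. The rest ran from -0.071 to 0.16 for Nrxn3, -0.11 to 0.066 for Nlgn1, -0.11 to 0.037 for Nlgn2, -0.027 to 0.093 for Nlgn3, -0.078 to 0.096 for Dlg4, -0.075 to 0.18 for Homer1 and -0.12 to 0.22 for Shank1. The cause was not tested. The ribbon less conventional difference of 0.22 was -0.0014 with library weights, 0.36 with the letter block and from 0.02 to 0.36 over single omitted libraries, lowest without control replicate 3. The median member difference ran from -0.05 without control replicate 3 to 0.06 with the letter block. Deviations of same-numbered libraries had correlations of 0.249, -0.151 and 0.390, and those of other pairs across genotypes ran from -0.352 to 0.231. The 2 positive same-numbered pairs also share a lettered set, so whether the numbers pair libraries cannot be told. The replicate block left the differences as they were and called 0 genes and 0 members. Read depth was least for Syt2, at 43 to 163 reads. Among tested members, Stx1a, at 276 to 989 reads, and Sv2b, at 10721 to 19502 reads, had the widest intervals. Cplx1, at 165 to 260 reads, had one of -0.32 to 0.21. The part of read depth in these widths was not tested.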
